A study of Rattus norvegicus with 6 samples.

Results

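The TNF superfamily pathway was followed through 10 genes: the ligands Tnf, Ltb, Tnfsf10 and Tnfsf13b, the receptors Tnfrsf1a, Tnfrsf1b, Tnfrsf11a and Tnfrsf14, and the intracellular regulators Tnfaip3 and Traf1. Members were taken by gene symbol from the deposited gene table and matched 12 of its 30957 rows, because Tnf and Ltb each hold 2 rows on chromosome 20. RNA came from the lumbar enlargement of Wistar rats on day 14 after cells were placed in the left tibia, and only the side of the cord on the side of the injection was sequenced, after removal of the meninges. In the bone cancer pain group (BCP, n = 3) the cells were living Walker 256 mammary carcinoma cells, and in the sham group (n = 3) the same cells had been killed by heat, so both groups carried the injury of the injection. The tumor grew in the bone and the RNA came from the cord. Rats were adult females according to the methods. Nothing ties a sequenced sample to more than its replicate number, and whether a sample was a single rat or a pool is not stated. The p-values therefore set the group difference against the spread between these samples.

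Ligands of this superfamily are mostly trimeric proteins made as membrane precursors, and many are shed or act on a neighbouring cell. Their receptors recruit TRAF and death domain adaptors that lead to NF-kappa-B and MAP kinase signalling, or to caspase and RIPK-dependent cell death. In the spinal cord TNF is best known as a product of activated microglia that sensitizes nociceptive transmission.

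Of the 10 members, 7 were higher in BCP cord: Tnf, Tnfsf13b, Tnfrsf1a, Tnfrsf1b, Tnfrsf14, Tnfaip3 and Traf1 rose by 2.02-fold to 44.3-fold. None was lower. Ltb, Tnfsf10 and Tnfrsf11a did not pass the test. A gene was called when its adjusted p from edgeR's quasi-likelihood test was under 0.05 and its level differed by more than 2-fold. Over all 14908 genes tested, 6.35% were called higher and 0.107% lower, and the median log2 fold change was -0.01, against 1.42 for the 10 member rows that were tested. The remaining 2 rows, 1 of Tnf and 1 of Ltb, were too low to be tested. The tested rows of Tnf, Ltb, Tnfrsf14 and Traf1 had few sham reads and passed the filter on low counts through their BCP libraries. With at least 10 counts required in every library, 4 members were called higher. Members were chosen with earlier results of these data known, so the counts and the median describe the list and do not test it. In 10 of the 12 rows every BCP library lay above every sham library in normalized read count (CPM, read counts scaled to a common library size). Among the tested rows this held for 9 of 10, beside 21.7% of all genes tested, with 19.7% the other way round.

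**Figure D1:**
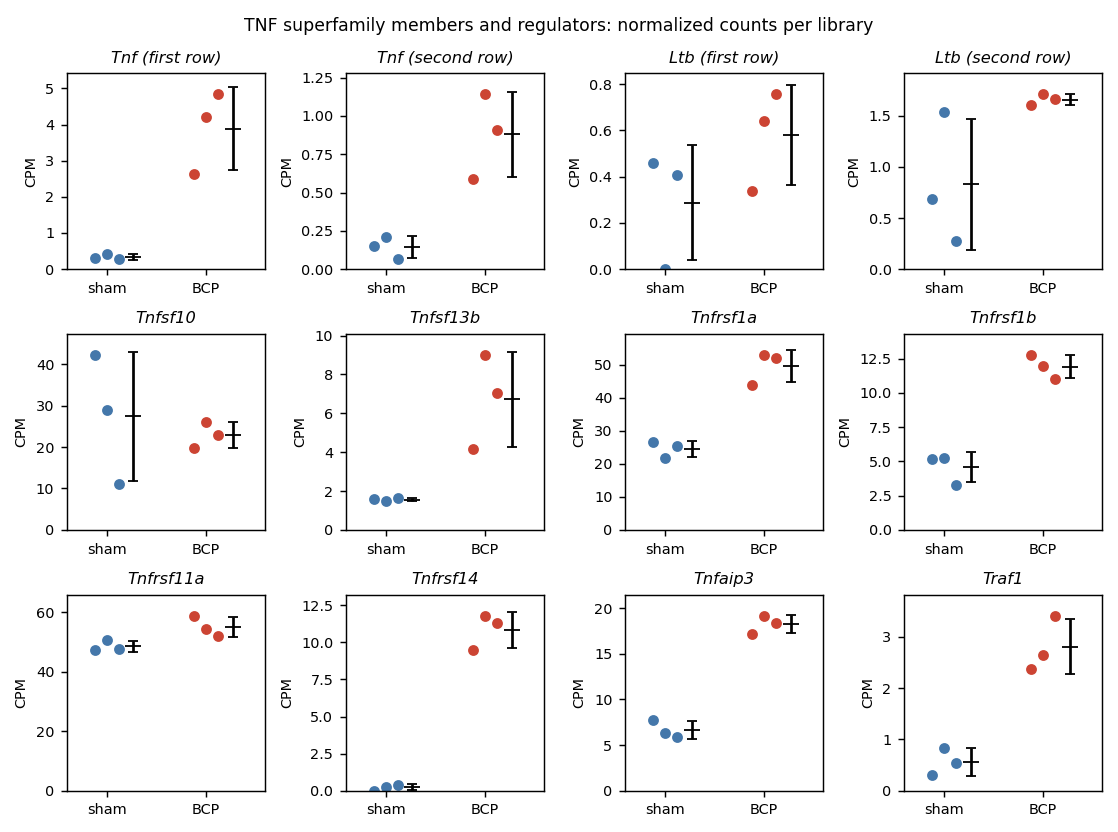
Normalized counts (CPM, linear axis from 0) of the 12 member rows in each of the 3 sham (blue) and 3 BCP (red) libraries, drawn in replicate order, with the group mean and SD in black. First and second row mean the lower and the higher start on chromosome 20. BCP libraries lie above all sham libraries in 10 of the 12 rows, and overlap them for Tnfsf10 and the first row of Ltb.

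Total counts in the gene table ran from 11779485 to 15004290 per library, and no pair of libraries within a group agreed within sampling noise. Markers of neurons, astrocytes and oligodendrocytes and the lumbar Hox genes were detected in every group, apart from Hoxa9, which was at 0 in all 6 libraries.

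Promoter sequences were available for 8 of the 10 members from RefSeq (assembly GRCr8), as 250 bases before and 50 after the annotated start. They were searched on both strands for 4 motifs of pathways that act on immune genes: the NF-kappa-B motif, the interferon-gamma activated site TTCNNNGAA, the interferon-stimulated response element (a pair of GAAA repeats with 2 bases of any kind between them), and the PU box GAGGAAG of myeloid and lymphoid cells. The NF-kappa-B motif, the response element and the PU box were each found in 2 of the 8 promoters and are in 7.51%, 3.92% and 12.4%, respectively, of 33469 rat promoters of the same length. The activated site was found in 1 of the 8 and is in 8.87% of all. The promoters of Tnfaip3, Tnf, Tnfsf13b, Tnfrsf1b and Traf1 are shown because these genes rose and their windows hold a match, in capitals, with no match overlapping another. That of Ltb is shown because it holds an NF-kappa-B match and an activated site although its main row was not called. The windows of Tnfsf10 and Tnfrsf1a held none of these letters. A match describes letters only, and binding was not measured. In GRCr8, Tnfaip3 is at chr1:15543930-15544229 on the minus strand, Tnf at chr20:3626435-3626734 on the plus strand, Tnfsf13b at chr16:86194450-86194749 on the minus strand, Tnfrsf1b at chr5:162387362-162387661 on the minus strand, Traf1 at chr3:38635721-38636020 on the minus strand and Ltb at chr20:3634005-3634304 on the minus strand. Each sequence is written 5′ to 3′ along the gene's strand.
Tnfaip3: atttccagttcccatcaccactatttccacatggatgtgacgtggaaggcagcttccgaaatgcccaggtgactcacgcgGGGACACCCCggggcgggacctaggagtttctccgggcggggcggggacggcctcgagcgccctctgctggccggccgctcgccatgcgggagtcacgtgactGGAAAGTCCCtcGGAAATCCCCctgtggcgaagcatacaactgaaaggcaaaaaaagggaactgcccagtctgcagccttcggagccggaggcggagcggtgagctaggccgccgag
Tnf: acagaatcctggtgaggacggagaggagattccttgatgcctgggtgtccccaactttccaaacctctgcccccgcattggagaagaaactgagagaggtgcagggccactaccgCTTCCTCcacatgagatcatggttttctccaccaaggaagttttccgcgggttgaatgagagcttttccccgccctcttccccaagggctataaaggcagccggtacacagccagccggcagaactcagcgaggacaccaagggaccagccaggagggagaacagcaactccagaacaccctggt
Tnfsf13b: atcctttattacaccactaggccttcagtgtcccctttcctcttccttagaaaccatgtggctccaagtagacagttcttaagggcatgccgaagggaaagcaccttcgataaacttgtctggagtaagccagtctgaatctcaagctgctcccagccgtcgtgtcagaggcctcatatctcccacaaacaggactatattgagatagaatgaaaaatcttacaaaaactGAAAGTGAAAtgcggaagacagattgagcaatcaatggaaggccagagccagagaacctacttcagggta
Tnfrsf1b: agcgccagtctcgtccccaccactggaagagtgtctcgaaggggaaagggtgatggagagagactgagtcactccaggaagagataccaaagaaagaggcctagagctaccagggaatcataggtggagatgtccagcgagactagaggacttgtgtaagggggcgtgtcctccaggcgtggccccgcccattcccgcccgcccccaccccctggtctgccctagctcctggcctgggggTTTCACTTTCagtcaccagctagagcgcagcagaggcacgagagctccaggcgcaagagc
Traf1: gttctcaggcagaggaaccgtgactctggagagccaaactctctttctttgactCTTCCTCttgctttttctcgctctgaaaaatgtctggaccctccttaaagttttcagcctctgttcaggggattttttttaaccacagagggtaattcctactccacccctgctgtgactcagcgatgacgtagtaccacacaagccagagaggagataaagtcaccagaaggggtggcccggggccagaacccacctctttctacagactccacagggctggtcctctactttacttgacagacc
Ltb: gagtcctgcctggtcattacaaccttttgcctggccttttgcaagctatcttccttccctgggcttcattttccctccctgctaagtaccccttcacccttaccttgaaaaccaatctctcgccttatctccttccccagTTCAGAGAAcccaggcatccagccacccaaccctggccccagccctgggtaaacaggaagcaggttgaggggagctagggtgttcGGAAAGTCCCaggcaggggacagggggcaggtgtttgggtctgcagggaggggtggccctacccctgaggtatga

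Counted from the base at the annotated start, the 3 NF-kappa-B matches of Tnfaip3 begin at -170, -67 and -55, and that of Ltb at -25. The response elements of Tnfsf13b and Tnfrsf1b begin at -20 and -10, the PU boxes of Tnf and Traf1 at -135 and -196, and the activated site of Ltb at -110.

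Tnf, the founding ligand of the family, rose from very few reads. Its first row (chr20:4855829-4858447, Rnor_6.0) gave 4, 6 and 4 counts in sham and rose to 31, 59 and 64 in BCP. The BCP libraries were all far above the sham libraries, with BCP 1 the lowest of them. Mean levels were 0.331 ± 0.0778 CPM (SD, n = 3) in sham and 3.89 ± 1.15 CPM in BCP, an 11.5-fold difference (log2 fold change 3.53, SE 0.38, adjusted p = 5.36e-07). The second row (chr20:5189390-5192000) had 2, 3 and 1 counts in sham and 7, 16 and 12 in BCP. This row had too few reads to be tested and showed the same separation of the groups. RefSeq lists Tnf once in GRCr8, and reads of near-identical copies may be divided between rows, so each row alone is uncertain. With the rows summed, an alternative added after seeing the data, Tnf had 6, 9 and 5 counts in sham and 38, 75 and 76 in BCP, and a log2 fold change of 3.32 (SE 0.34, adjusted p = 3.38e-07). In bulk tissue, more cells that make a transcript and more transcript per cell cannot be told apart, here or for any gene that follows.

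Ltb, the membrane-anchored lymphotoxin that pairs with lymphotoxin alpha, lies beside each copy of Tnf, with 2887 bases between the genes at the lower locus and 2886 at the upper. Its second row (chr20:5184515-5186503) had 9, 22 and 4 counts in sham and 19, 24 and 22 in BCP. In CPM the BCP libraries sat close together at 1.66 ± 0.0543, whereas the sham libraries ranged from 0.270 in sham 3 to 1.53 in sham 2, just under the lowest BCP library. The log2 fold change of 1.00 (SE 0.43) did not pass the test (adjusted p = 0.0969). The first row (chr20:4861335-4863198) had 6, 0 and 6 counts in sham and 4, 9 and 10 in BCP, with overlapping groups, and was not tested. The outcome for Ltb turned on how the copies were handled and on a single library. Summed over its rows Ltb had 15, 22 and 10 counts in sham and 23, 33 and 32 in BCP, a log2 fold change of 1.01 (SE 0.33) that was called (adjusted p = 0.0265), and without sham 2 the second row alone gave 1.81 (adjusted p = 0.0108), while without sham 3 it gave 0.56 (adjusted p = 0.355). Lta, the partner of Ltb, was listed at 0 in every sham library and had 1, 0 and 1 counts in BCP.

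Tnfsf10, which encodes the death ligand TRAIL, was the most abundant ligand among the members and showed no detectable difference (chr2:113007549-113026899). Its levels were 42.2, 28.9 and 11.1 CPM in sham and 19.9, 26.1 and 22.9 CPM in BCP. The sham libraries enclosed the BCP libraries, with sham 1 the highest and sham 3 the lowest of all. The log2 fold change was -0.24 (SE 0.53, adjusted p = 0.796). It turned to 0.20 without sham 1 (adjusted p = 0.832), and without sham 3 it was -0.63 with adjusted p = 0.0271, still within 2-fold. The lncRNA NONRATT015190.2, which overlaps the end of the gene (chr2:113025166-113026898), varied in the same libraries, with 253, 213 and 11 counts in sham and 124, 179 and 153 in BCP. Among 77 tested rows of the ligand, receptor and signalling lists described below, 4 were in sham 3 under 50% of their level in each of the other sham libraries (Tnfsf10, Ltb, Mlkl and Ripk3). The same held in sham 1 for 3 rows (Tnfrsf14, Tnfrsf4 and Tnip3) and in sham 2 for 1 (Faslg), and over all genes tested for 1.48% in sham 3, 0.677% in sham 1 and 0.436% in sham 2. The 7 calls among the members held without sham 3.

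Tnfsf13b, the B-cell activating factor BAFF (chr16:85275678-85306366), was steady in sham and spread widely in BCP. It had 21, 21 and 24 counts in sham and 49, 126 and 93 in BCP, and the groups did not overlap. The mean rose from 1.56 ± 0.0842 to 6.72 ± 2.44 CPM, a log2 fold change of 2.11 (SE 0.28, adjusted p = 9.85e-06). The highest BCP library had 2.17 times the CPM of the lowest, the widest ratio among the called members.

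Both receptors for TNF rose. Tnfrsf1a, the broadly expressed receptor with a death domain (chr4:157864969-157877633), had 348, 313 and 375 counts in sham and 520, 741 and 687 in BCP, all BCP libraries above all sham libraries. Its mean went from 24.6 ± 2.43 to 49.6 ± 4.94 CPM, a log2 fold change of 1.02 (SE 0.09, adjusted p = 5.73e-08). This value lies at the 2-fold limit and fell under it, to between 0.94 and 0.98, without sham 2, BCP 2 or BCP 3 and with upper-quartile normalization, while its adjusted p stayed at 3.69e-06 or less. Tnfrsf1b, the receptor without a death domain that binds membrane TNF well and is prominent on immune cells (chr5:163136390-163167299), had 68, 75 and 49 counts in sham and 151, 167 and 146 in BCP. The groups were far apart, and sham 3 was the lowest library. The mean rose from 4.57 ± 1.10 to 11.9 ± 0.855 CPM (log2 fold change 1.38, SE 0.18, adjusted p = 4.91e-06).

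The balance between the TNF receptors was compared within each library from the authors' FPKM, which divide by gene length. Tnfrsf1b stood at 14.4%, 17.7% and 9.64% of the Tnfrsf1a level in sham and at 21.4%, 16.6% and 15.7% in BCP. These groups overlapped. The log2 ratio was 0.39 higher in BCP on average (exact two-sided permutation test, p = 0.3, with 0.1 the smallest p that 3 against 3 libraries allow), so no shift between the receptors was detected.

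Tnfrsf14, the herpesvirus entry mediator, a receptor for LIGHT and BTLA that is abundant on lymphocytes, had the largest change of the 10 (chr5:172328262-172335892). It had 0, 4 and 6 counts in sham and 112, 165 and 149 in BCP. The receptor was thus at or near the detection limit in every sham library and readily measured in every BCP library. Means were 0.228 ± 0.207 and 10.8 ± 1.22 CPM, a 44.3-fold difference (log2 fold change 5.47, SE 0.35, adjusted p = 5.83e-10). Leaving out single libraries moved the log2 value between 4.95 and 6.13. Its ligand gene Tnfsf14 had 0, 1 and 0 counts in sham and 0, 1 and 0 in BCP.

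Tnfrsf11a, the RANK receptor for the osteoclast factor encoded by Tnfsf11, was the most abundant member per length in sham cord and moved little (chr13:25778317-25835957). Its levels were 47.4, 50.7 and 47.7 CPM in sham and 58.8, 54.5 and 52.0 CPM in BCP. All BCP libraries were above all sham libraries, by a small margin. The log2 fold change was 0.18 (SE 0.07, adjusted p = 0.0634), and its adjusted p ranged from 0.0509 to 0.192 when single libraries were left out. Tnfsf11 has rows at chr15:60482527-60512704 and chr15:62067565-62097749, and each was listed at 0 in all 6 libraries. How reads of copies were assigned is not given, so these zeros do not show that the transcript was absent.

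Tnfaip3, the ubiquitin-editing enzyme that restrains NF-kappa-B signalling and is itself a well-known NF-kappa-B target (chr1:14402913-14412807), gave the tightest groups among the called members in BCP. It had 101, 91 and 87 counts in sham and 203, 268 and 243 in BCP. No sham library came near the BCP libraries. The mean rose from 6.64 ± 0.945 to 18.2 ± 1.00 CPM (log2 fold change 1.46, SE 0.13, adjusted p = 6.43e-08). Traf1, an adaptor that binds TNFRSF1B complexes and is induced by NF-kappa-B (chr3:14003340-14019204), had 4, 12 and 8 counts in sham and 28, 37 and 45 in BCP. Its sham counts were few and did not overlap the BCP counts. The mean rose from 0.561 ± 0.267 to 2.80 ± 0.538 CPM (log2 fold change 2.29, SE 0.36, adjusted p = 6.11e-05). Of the 7 called members, BCP 1 was the lowest BCP library for 6 and the highest for 1, Tnfrsf1b.

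Set on a scale per length, the receptors Tnfrsf11a and Tnfrsf1a led. In sham cord Tnfrsf11a had 16.7 FPKM, Tnfrsf1a 11.3, Tnfsf10 7.02, Tnfaip3 2.68 and Tnfrsf1b 1.56. Tnfsf10, with its wide sham spread, overlapped both Tnfrsf1a and Tnfaip3, and the other neighbours in this order did not overlap. From the second row of Ltb (0.625 FPKM) down to the second row of Tnf (0.0840 FPKM), with Tnfsf13b, Traf1 and Tnfrsf14 between, each sham level overlapped the one above it. In BCP cord Tnfrsf1a (23.6 FPKM) stood above Tnfrsf11a (19.5), followed by Tnfaip3 (7.56), Tnfsf10 (6.06), Tnfrsf14 (5.35) and Tnfrsf1b (4.17). Of these only Tnfsf10 and Tnfrsf14 overlapped as neighbours. Tnf followed at 2.34 FPKM in its first row, and Tnfsf13b (1.90), Traf1 (1.49) and the second row of Ltb (1.29) each overlapped the level above. The remaining rows of Tnf and Ltb were at 0.533 and 0.283 FPKM.

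In the whole list of 18 superfamily ligands, 11 were tested, 4 were called higher and none lower, with a median log2 fold change of 0.96. Outside the members, 2 of 7 tested ligands were called (median 0.32), beside 6.35% of all genes tested called higher. Beside the members Tnf and Tnfsf13b the called ligands were Tnfsf8, the CD30 ligand, and Faslg, the FAS ligand. Neither Tnfsf8 nor Faslg would have passed the filter on low counts on its sham libraries alone. The share outside the members therefore describes the list and does not test it. Tnfsf8 had 9, 7 and 12 counts in sham and 14, 36 and 28 in BCP, without overlap in CPM (log2 fold change 1.57, adjusted p = 0.00380). Faslg had 32, 9 and 20 counts in sham and 37, 39 and 43 in BCP (log2 fold change 1.07, adjusted p = 0.0279), and its call was lost without sham 2, sham 3 or any 1 of the BCP libraries (adjusted p = 0.0527 to 0.134). Tnfsf9, the 4-1BB ligand, had an adjusted p of 0.0242 at a log2 fold change of 0.96, just under the limit of 2-fold, which it passed without sham 1, sham 3 or BCP 3. In 7 ligands there were too few reads for a test. Among them Tnfsf18, the GITR ligand, was at 0 in every sham library and had 7, 5 and 9 counts in BCP, at least 2.54-fold higher when 3 counts are taken as the floor of each sham library. Cd40lg was at 0 in sham and had 1, 5 and 0 counts in BCP.

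Of 25 superfamily receptors, 21 were tested, 7 were called higher and none lower, with a median log2 fold change of 0.42. Outside the members, 4 of 17 tested receptors were called (median 0.40), beside 6.35% of all genes tested called higher. Besides Tnfrsf1a, Tnfrsf1b and Tnfrsf14 the called receptors were Cd27, Tnfrsf13c, Cd40 and Fas. Of these, Cd27, Tnfrsf13c and Cd40 would not have passed the filter on low counts on their sham libraries alone. The share outside the members again describes the list and does not test it. Cd27, a costimulatory receptor of T and B cells, was at 0 in every sham library and had 25, 43 and 44 counts in BCP, at least 13.3-fold higher on the same floor (adjusted p = 2.26e-07). Tnfrsf13c, the BAFF receptor, had 4, 7 and 5 counts in sham and 37, 51 and 45 in BCP (log2 fold change 3.14, adjusted p = 7.39e-07). Cd40, the costimulatory receptor of antigen-presenting cells, had 12, 8 and 14 counts in sham and 52, 59 and 43 in BCP (log2 fold change 2.28, adjusted p = 7.75e-06). Fas, a death receptor, had 24, 38 and 26 counts in sham and 68, 109 and 100 in BCP (log2 fold change 1.76, adjusted p = 6.13e-06). In each of these 4 every BCP library lay above every sham library, as in 21.7% of all genes tested. Without the limit on the fold change, 10 receptors were higher and 1, Tnfrsf21, was lower at a log2 fold change of -0.13 (adjusted p = 0.0485). Over all genes tested, 15.8% were higher and 12.1% lower on that criterion.

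**Figure D2:**
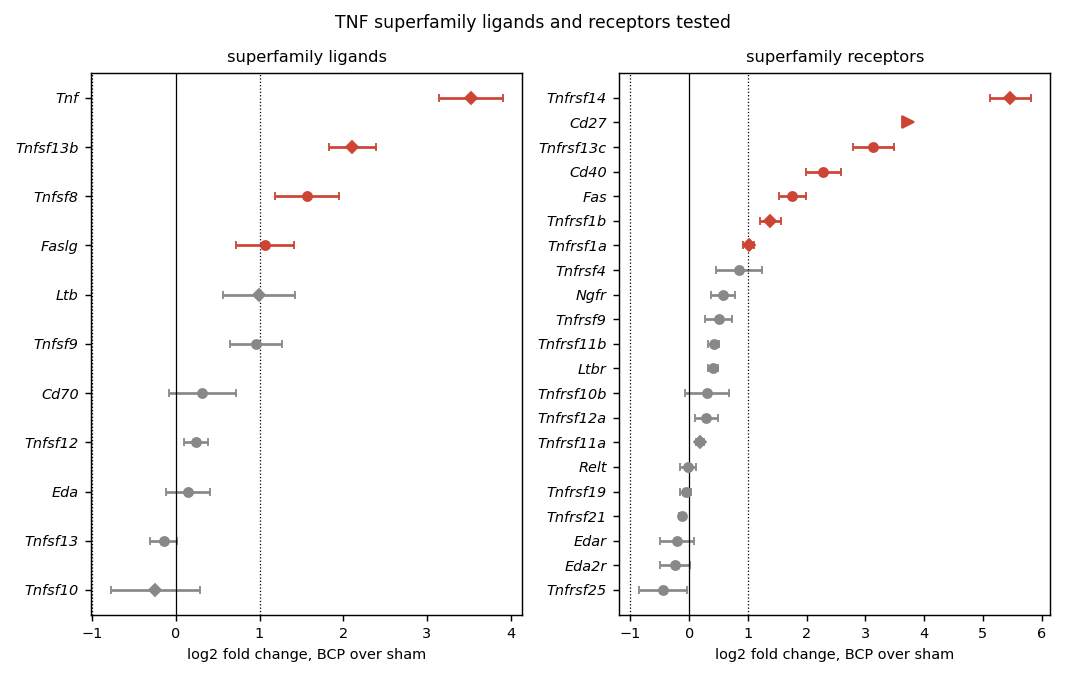
Log2 fold changes of BCP over sham with their standard errors for the 11 ligands (left) and 21 receptors (right) that were tested. Diamonds are members, circles other genes of the lists, red points were called higher, dotted lines mark 2-fold, and the triangle gives the lower bound for Cd27, which was at 0 in sham. Tnf and Tnfrsf14 stand at the top of the panels, and Tnfsf10 at the bottom of the ligands.

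Downstream of the receptors, all 35 adaptor and signalling genes of the list were tested, and 7 were higher and none lower (median log2 fold change 0.28). Outside the members these were 5 of 33, beside 6.35% of all genes tested called higher. Casp8, the initiator caspase of death receptors, rose with a log2 fold change of 1.92 (adjusted p = 1.67e-08). Birc3, an inhibitor-of-apoptosis ubiquitin ligase in the TNF receptor complex, rose with 2.61 (adjusted p = 1.73e-07), from 28, 50 and 24 counts to 145, 244 and 191. The necroptosis kinase gene Ripk3 rose with 2.60 (adjusted p = 1.07e-05), and its substrate gene Mlkl with 1.85 (adjusted p = 0.0324). The call of Mlkl was lost without sham 2 or any 1 of the BCP libraries (adjusted p = 0.0694 to 0.106). Tnip3, a partner of the Tnfaip3 protein, rose from 0, 3 and 1 counts to 11, 14 and 20 (log2 fold change 3.48, adjusted p = 3.13e-04). It passed the filter on low counts through its BCP libraries. Without the limit on the fold change, 19 of the 35 genes were higher, beside 15.8% of all genes tested. Only 1 was lower, beside 12.1%. That gene was Traf3, an adaptor that restrains the alternative NF-kappa-B pathway, at a log2 fold change of -0.18 (adjusted p = 0.0340).

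All 10 NF-kappa-B subunits and inhibitors were tested, and 5 were higher and none lower (median log2 fold change 1.10), beside 6.35% of all genes tested called higher. The subunits Nfkb2, Relb and Rel rose with log2 fold changes of 1.47, 1.31 and 1.29, and the regulators Bcl3 and Nfkbiz with 2.62 and 1.90. Bcl3 would not have passed the filter on low counts on its sham libraries alone. Nfkb2 had 111, 108 and 104 counts in sham and 240, 283 and 305 in BCP, so that the groups were well separated. Nfkb1 had an adjusted p of 3.36e-09 at 0.92, within 2-fold. Rela, which encodes the main transactivating subunit, did not pass (log2 fold change 0.19, adjusted p = 0.0631).

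**Figure D3:**
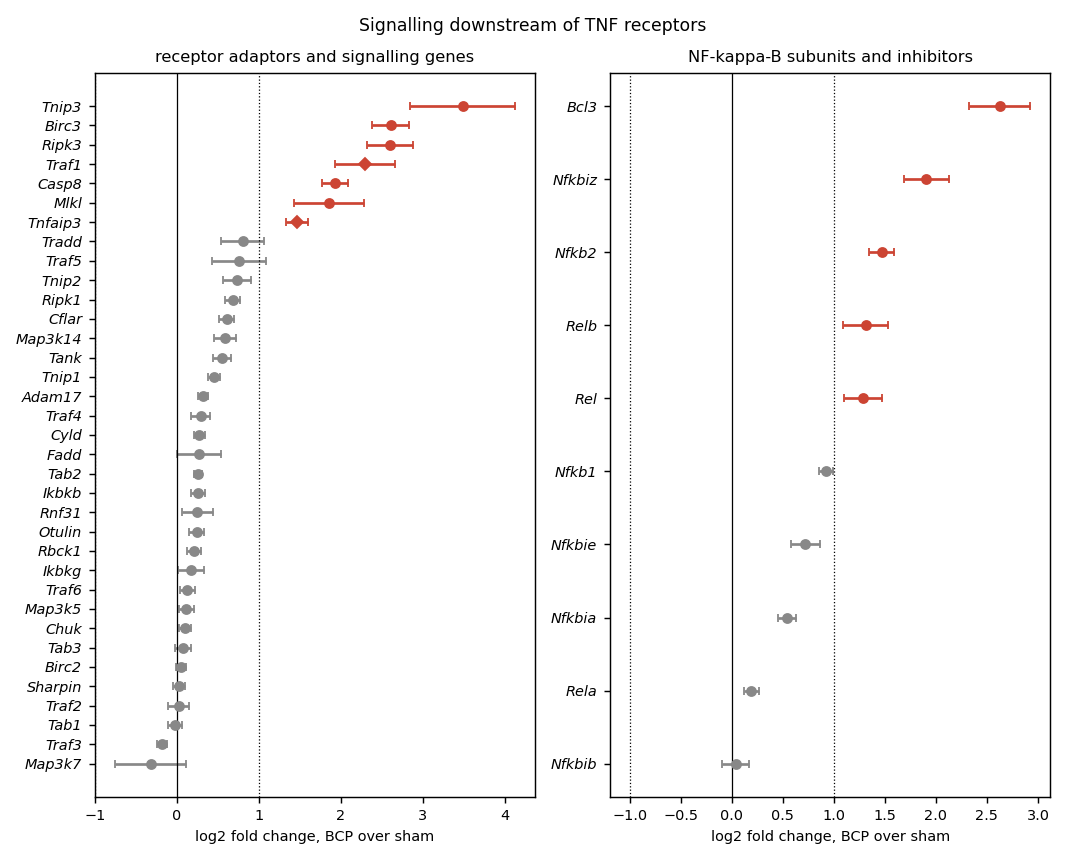
Log2 fold changes of BCP over sham with standard errors for 35 adaptor and signalling genes (left) and 10 NF-kappa-B genes (right). Diamonds are the members Tnfaip3 and Traf1, red points were called higher and dotted lines mark 2-fold. In the left panel 7 genes stand apart to the right and most others lie to the right of 0 within 2-fold. In the right panel 5 genes are past 2-fold.

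Markers of other cells differed between the same groups. Of 13 microglia markers 9 were called higher, beside 6.35% of all genes tested. The summed level of the 13 ran from 289 to 385 CPM in sham and from 1026 to 1263 CPM in BCP. All 8 tested T cell markers, of 9 found, were higher, beside 6.35% of all genes tested. Apart from Cd4, they would not have passed the filter on low counts on their sham libraries alone. That count therefore does not test the list. The T cell sums were 6.08 to 6.77 CPM in sham and 52.6 to 60.6 CPM in BCP. Cd4 made up most of the sham sum, at 4.42 to 5.65 CPM, and was at 19.7 to 25.6 CPM in BCP. Cd3d and Cd8b were at 0 in every sham library, and Cd3e and Cd3g each had 0, 0 and 1 counts there. The sham sum therefore mainly follows Cd4. Neutrophil markers summed to 8.78 to 10.1 CPM in sham and 30.2 to 34.4 CPM in BCP. Csf3r alone was at 7.97 to 9.90 CPM in sham and 23.82 to 31.85 CPM in BCP, so the sum mainly follows that gene. Csf3r and S100a8 were the 2 tested of 8, both higher. S100a8 had 1, 0 and 0 counts in sham and passed the filter on low counts through its BCP libraries. Elane was at 0 in sham. The 6 B and plasma cell markers found were all too low to test, at 0.457 to 0.608 CPM in sham and 0.929 to 1.36 CPM in BCP in sum, with Ms4a1 at 0 in sham, beside the rises of Tnfsf13b and its receptor gene Tnfrsf13c. No monocyte and macrophage marker of 5 tested was called (203 to 211 and 200 to 237 CPM, with Ccr2 at 0 in sham). Most of that sum was Vcan, at 185 to 197 CPM in sham and 186 to 223 CPM in BCP, so the sum mainly follows that gene. Oligodendrocyte markers summed to 38490 to 43740 CPM in sham and 27570 to 30770 CPM in BCP. All 7 were lower at an adjusted p under 0.05, within 2-fold, beside 12.1% of all genes tested. On that criterion 3 of 8 neuron markers and 2 of 6 tested root markers were lower, and of 7 astrocyte markers 3 were lower and Gfap was higher (log2 fold change 0.80, adjusted p = 5.27e-05). Neuron markers summed to 4618 to 4760 CPM in sham and 4046 to 4482 CPM in BCP, root markers to 256 to 272 and 192 to 234 CPM, and astrocyte markers to 6481 to 6717 and 7580 to 9656 CPM. BCP 1, the lowest BCP library for most called members, stood apart in Aqp4, at 2413 CPM beside 360 in BCP 2 and 361 in BCP 3, and in Col1a1, at 84.0 CPM beside 33.0 and 26.5. Without BCP 1 the 7 members were still called. Epithelial tumor markers were at 4.34 to 5.65 and 4.78 to 7.19 CPM, none of 2 tested called. The part of these cell types in the levels of the TNF genes was not tested.

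**Figure D4:**
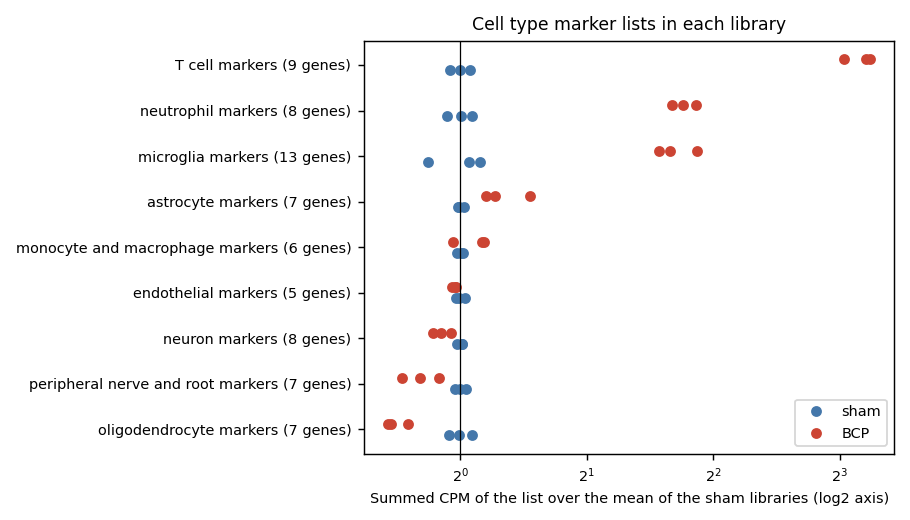
Summed CPM of each marker list in each library, divided by the mean of the sham libraries (log2 axis), for sham (blue) and BCP (red). The T cell, neutrophil and microglia lists lie far above the sham libraries in every BCP library, and the oligodendrocyte list below them. The neutrophil sums are mostly Csf3r, the monocyte and macrophage sums mostly Vcan, and the sham T cell sums mostly Cd4.

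Near 5 of the members lay 9 lncRNA transcripts of the lncRNA table within 10 kb, of which 5 overlapped a member's span and 5 were tested. Only NONRATT023930.2, inside the span of Tnfrsf14 (chr5:172329170-172330108), was called higher, beside 1.14% of the 12157 lncRNAs tested, and none was called lower, beside 0.074%. It had 0, 1 and 1 counts in sham and 23, 57 and 42 in BCP, with a log2 fold change of 5.81 (SE 0.61, adjusted p = 0.00416). It passed the filter on low counts through its BCP libraries. Other transcripts over Tnfrsf14 were too low or too uneven to be tested, with 0, 1 and 5 against 5, 115 and 12 counts for NONRATT023929.2 and 0, 1 and 0 against 6, 7 and 11 for NONRATT023931.2. The share of all lncRNAs called higher itself varied, with 47 of 12935 called without BCP 3 and 51 of 12903 without sham 2, and NONRATT023930.2 was called in each of these fits. The tables hold no strand, so reads of these transcripts and of Tnfrsf14 cannot be told apart. NONRATT015190.2 over Tnfsf10 did not pass (log2 fold change 0.03, SE 1.10, adjusted p = 0.995), nor did the 3 transcripts near the first row of Ltb. NONRATT012164.2 over Tnfsf13b (9, 4 and 8 against 8, 33 and 4 counts) and NONRATT021862.2 near Tnfrsf1a (1, 3 and 1 against 1, 1 and 1) were not tested.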

How the data were processed

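RNA from 3 sham and 3 BCP samples was depleted of ribosomal RNA and sequenced as stranded libraries. The authors cleaned reads with Seqtk and aligned them to Rnor_6.0 with HISAT2 2.0.4, and StringTie 1.3.0 stands in the submitters' processing notes. How reads were assigned to genes, by strand or among copies, is not given in the sources used here. The authors deposited raw counts and FPKM (fragments scaled by gene length and library size) per gene and per lncRNA. Counts were the basis of every test except that of the ratio between the TNF receptors, which used FPKM. Otherwise FPKM served only to compare levels between genes.

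Counts were filtered by filterByExpr, scaled by TMM and fitted in R 4.3.3 with edgeR 4.0.16 (robust quasi-likelihood test, condition only), with Benjamini-Hochberg adjustment over all genes or all lncRNAs. CPM use the TMM-scaled totals. The tests were checked on simulated data. Sequences came from RefSeq tables. Plots used matplotlib 3.10.9 in Python 3.11.15. The alternatives were DESeq2 1.42.0, a likelihood ratio test, other normalizations, filters and fold limits, a replicate block and leaving out each library.

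Named genes were all 10 members, list genes past both limits, at most 6 per signalling list, and lncRNAs within 10 kb. Genes named otherwise (Tnfsf9, Tnfsf11, Tnfsf14, Tnfsf18, Lta, Cd40lg, Tnfrsf21, Traf3, Nfkb1 and Rela, and single markers) were chosen after their values were seen. Members, lists and motifs were chosen with earlier results of these data known. The deposited columns of descriptions and lengths were not tested.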

Additional observations from a re-analysis of the deposited data

How the results depend on the processing

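Over 23 results, 330 of 347 alternatives kept the direction and the side of the threshold, or a count within 1.5 times. That tally includes the counts called lower, which were 0 in the main fit, and counts members again within the lists. A fall from 7 to 5 members also counted as kept. With at least 10 counts in every library, 4 members were called higher instead of 7, 1 ligand instead of 4, 3 receptors instead of 7 and 0 nearby lncRNAs instead of 1, by construction, since that filter removes genes with few reads in sham. A test against 2-fold called 5 members instead of 7 and 5 receptors instead of 7. It called 2 ligands instead of 4, 6 signalling genes instead of 7 and 3 NF-kappa-B genes instead of 5. Without a limit on the fold, 19 signalling genes were higher instead of 7, 1 receptor and 1 signalling gene were lower instead of 0, and 8 NF-kappa-B genes were higher instead of 5. Tnfrsf1a fell to 0.98 on the log2 scale with upper-quartile normalization, under the 2-fold limit. Ltb reached 1.01 with its rows summed, which was called. When libraries were left out in turn, log2 fold changes ran from 0.56 to 1.81 for Ltb, from -0.63 to 0.20 for Tnfsf10 and from 0.94 to 1.10 for Tnfrsf1a, and members called higher from 6 to 7. The cause was not tested. Over all genes, the 2-fold test called 548 higher and 0 lower, the 10-count filter 649 and 6, and the fit without a fold limit 2352 and 1805, instead of 946 and 16. The replicate numbers did not pair the samples: deviations of same-numbered libraries correlated at -0.11, 0.05 and -0.04. A replicate block still called 7 members higher, with Tnf at 3.52 and Traf1 at 2.30, and 907 genes higher over the whole table, and 43 lncRNAs instead of 139, and among the lists lost the call of Mlkl (adjusted p = 0.0543).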
